A study of Mus musculus with 2 samples.

Results

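The immunoglobulin constant region genes Ighm, Ighd, Igkc and Iglc2, with Jchain, Mzb1 and Xbp1, were examined in single-cell RNA-seq of mouse limb muscle. These 7 genes were taken by symbol from the 32285 genes counted, because their measured levels set B cells, rare antibody-secreting cells and all other cells apart, so the genes were chosen by their UMI levels across cells and those levels are given as a description. The study sorted live mononuclear cells from the limb muscle of aged C57BL/6 mice that received the drug Maraviroc (MVC) or its vehicle DMSO by intraperitoneal injection, after lysis of red blood cells. Each group was 1 droplet library (10x Genomics), no genetic alteration was named for either, and the number of mice behind each library was not given in the sources used here. With 1 library per group no difference between MVC and DMSO has a replicate check, and all intervals below are 95% intervals that cover counting error only. Cells with at least 500 detected genes and at most 10% mitochondrial UMIs (unique molecular identifiers, which count captured RNA molecules) were kept, which left 5437 of 5812 DMSO barcodes and 5454 of 6047 MVC barcodes. The kept cells held 38748234 UMIs in DMSO and 35518029 in MVC, with medians of 5802 and 5195 UMIs per cell. The libraries shared 9 barcodes, none of them an antibody-secreting cell described below.

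An antibody is built from heavy chains, whose constant region sets the isotype (Ighm for IgM, Ighd for IgD, Ighg2b and Ighg2c for IgG2 subclasses), and from kappa (Igkc) or lambda (Iglc1, Iglc2, Iglc3) light chains, each joined to a variable (V) segment. Resting B cells carry IgM and IgD on their surface, whereas plasma cells stop making IgD and devote much of their RNA to a single heavy and light chain pair. Jchain links IgM and IgA into polymers, Mzb1 is a B lineage chaperone of the endoplasmic reticulum (ER) that assists antibody assembly, and Xbp1 is the transcription factor made active by the ER stress sensor Ern1 (IRE1), used by plasma cells and by other secretory cells.

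On the GRCm38 build with GENCODE M21 annotation, the heavy chain constant genes Ighm (chr12:113418558-113422730) and Ighd (chr12:113406604-113416324) lie on the minus strand of chromosome 12. Igkc lies at chr6:70726435-70726966 on the plus strand, and Iglc2 at chr16:19198396-19200351 on the minus strand. The lambda constant genes are shown first because they limit what a count of Iglc2 means. Over the annotated coding part, Iglc2 and Iglc3 were 96.2% identical and Iglc2 and Iglc1 72.3%. The last 90 coding bases of each are given 5′ to 3′ from GENCODE M21, all on the minus strand of chromosome 16. Capitals in Iglc3 and Iglc1 mark bases that differ from Iglc2, and capitals in Iglc2 mark bases that differ from either.
Iglc2 (chr16:19198539-19198628): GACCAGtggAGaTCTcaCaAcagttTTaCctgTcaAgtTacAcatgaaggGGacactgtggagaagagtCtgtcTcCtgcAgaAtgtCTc
Iglc3 (chr16:19065368-19065457): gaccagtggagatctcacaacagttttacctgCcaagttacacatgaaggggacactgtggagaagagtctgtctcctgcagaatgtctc
Iglc1 (chr16:19061755-19061844): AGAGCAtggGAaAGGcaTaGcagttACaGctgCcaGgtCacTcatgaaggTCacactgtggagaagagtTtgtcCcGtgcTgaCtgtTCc
In this stretch Iglc3 differed from Iglc2 at 1 base and Iglc1 at 29 bases, so the division of reads between Iglc2 and Iglc3 is uncertain, while Iglc1 is distinct.

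A kept cell was called Ig-high when the 12 constant region genes, Jchain and all 348 listed Ighv, Igkv and Iglv genes together held at least 10% of its UMIs. There were 10 such cells, 6 of 5437 in DMSO (0.110%, exact binomial interval 0.0405 to 0.240%) and 4 of 5454 in MVC (0.0733%, 0.02 to 0.188%). The MVC share minus the DMSO share was -0.0370 percentage points (Newcombe interval -0.175 to 0.0927), so a difference was not detectable at this number of cells. The lowest cell inside the limit was at 16.9% and the highest kept cell outside it at 2.11%, and no kept cell lay between these values. The rule used the immunoglobulin counts, so what follows on those genes is a description of the 10 cells, which are numbered within each library by falling immunoglobulin share.

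Each Ig-high cell was dominated by 1 heavy chain and 1 light chain. In DMSO, 5 of the 6 cells carried an IgG2 isotype. Ighg2b held 3810, 2048 and 2275 UMIs in DMSO cells 1, 5 and 6, and Ighg2c held 1945 and 1518 UMIs in DMSO cells 2 and 3, while Ighm was at 0 in all of these. DMSO cell 4 carried 481 Ighm UMIs and was the lambda cell of the set, with 1954 Iglc1 UMIs and no Igkc. In MVC all 4 cells used Ighm, at 3972, 663, 798 and 1173 UMIs, and no UMI of Ighg2b or Ighg2c was counted in them. Igkc was the light chain of the other 9 cells, with 10478, 6277, 4403, 2690 and 3065 UMIs in DMSO cells 1, 2, 3, 5 and 6 and 11384, 1304, 1788 and 2637 UMIs in MVC cells 1 to 4. The leading heavy chain gene held at least 99.5% of heavy chain constant UMIs in every cell, and the leading light chain gene at least 96.9% of light chain UMIs. Ighd was at 0 UMIs in all 10 cells, and Iglc2 held 1 to 35 UMIs.

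**Figure D1:**
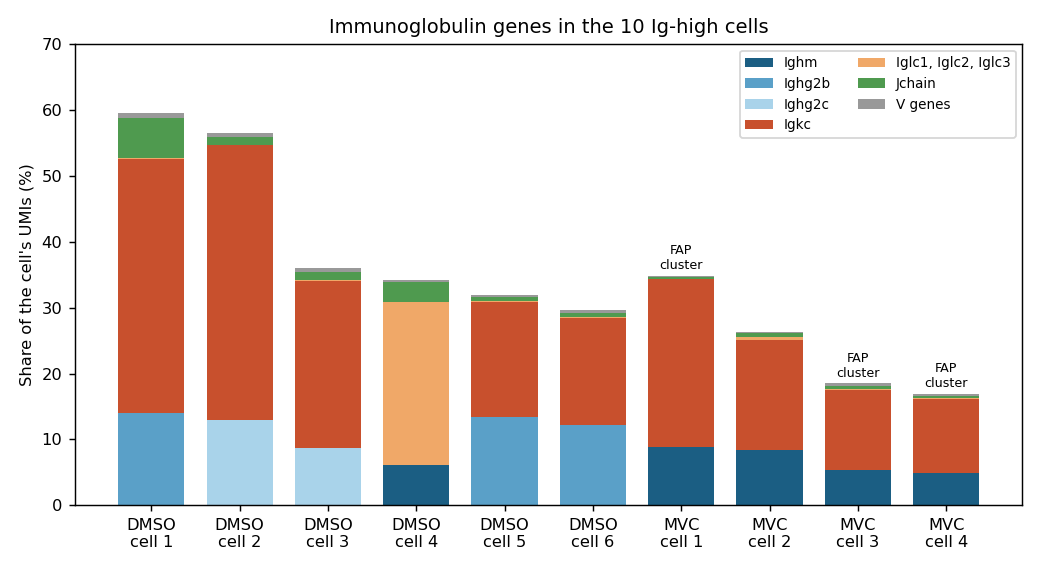
Stacked bars show the share of each Ig-high cell's UMIs (y axis, %) held by Ighm, Ighg2b, Ighg2c, Igkc, the lambda constant genes, Jchain and the V genes, for the 6 DMSO and 4 MVC cells. The DMSO cells reach 29.6 to 59.6% and carry 3 heavy chain isotypes, the MVC cells reach 16.9 to 34.8% and all carry Ighm, and 3 MVC cells marked as such clustered with fibro-adipogenic progenitors (FAP).

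The V genes with the most UMIs separated most of these cells from one another. DMSO cell 1 held Ighv2-5 (135 UMIs) with Igkv4-91 (71), DMSO cell 2 Ighv1-75 (28) with Igkv10-96 (38), and DMSO cell 6 Ighv1-34 (40) with Igkv4-61 (36). The lambda cell held Ighv6-3 (6) with Iglv1 (27). DMSO cells 3 and 5 both held Ighv1-39 (22 and 19) with Igkv10-96 (81 and 23), although the first carried Ighg2c and the second Ighg2b. In MVC, cell 1 held Ighv1-72 (20) with Igkv3-5 (57) and cell 2 held Ighv1-53 (6) with Igkv10-94 (5). MVC cells 3 and 4 both held Ighv1-53 (25 and 25) with Igkv3-2 (17 and 24) and also Iglv1 (25 and 28). Iglv1 was not particular to them, with 20, 7 and 4 UMIs in DMSO cells 1, 2 and 6 and 13 in MVC cell 1, all of them Igkc cells. MVC cells 3 and 4 resembled each other in their ratio of Ighm to Igkc UMIs, 0.446 and 0.445, and their barcodes differed at 11 of 16 bases. The counts name V genes and hold no junction sequence, so whether cells with the same V genes belong to 1 clone was not tested.

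The V gene names rest on closely related sequences, and those behind the kappa chains are shown for that reason. The last 60 coding bases of each segment are given 5′ to 3′ (GENCODE M21, GRCm38), with capitals where the segments of a pair differ.
Igkv3-2 (chr6:70699008-70699067, plus strand): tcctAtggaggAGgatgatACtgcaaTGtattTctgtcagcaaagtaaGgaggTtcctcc
Igkv3-5 (chr6:70663836-70663895, plus strand): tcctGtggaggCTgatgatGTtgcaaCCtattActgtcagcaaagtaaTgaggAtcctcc
Igkv10-96 (chr6:68631963-68632022, minus strand): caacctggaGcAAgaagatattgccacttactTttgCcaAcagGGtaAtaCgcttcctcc
Igkv10-94 (chr6:68704508-68704567, minus strand): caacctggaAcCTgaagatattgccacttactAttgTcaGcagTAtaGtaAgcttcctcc
Each pair differed at 10 of these 60 bases, and over the whole coding part Igkv3-2 and Igkv3-5 were 91.1% identical and Igkv10-96 and Igkv10-94 95.4%. On the heavy chain, Ighv1-53 and Ighv1-72 were 95.4% identical overall and had the same last 60 bases, which are given for Ighv1-53.
Ighv1-53 (chr12:115158403-115158462, minus strand): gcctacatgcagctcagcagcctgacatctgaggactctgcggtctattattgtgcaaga
Segments of 1 family are therefore uncertain names where few UMIs support them, as in MVC cell 2.

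Outside the immunoglobulin loci, Jchain (chr5:88519809-88527891, minus strand), Mzb1 (chr18:35647267-35649367, minus strand) and Xbp1 (chr11:5520659-5525893, plus strand) are annotated as protein coding genes of the same build.

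Jchain was part of the rule and was nearly restricted to these cells. It held 1648, 182, 205, 240, 93 and 107 UMIs in DMSO cells 1 to 6, and 142, 43, 59 and 78 UMIs in MVC cells 1 to 4. Jchain made up 10.2% of the immunoglobulin UMIs in DMSO cell 1, an Ighg2b cell, and 8.84% in the lambda Ighm cell, against 0.910 to 3.28% in the other 8 cells. The 6 DMSO cells held 99.1% of that library's Jchain UMIs and the 4 MVC cells 90.4%. DMSO cell 1 by itself held 66.0% of the DMSO Jchain UMIs.

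Mzb1 and Xbp1 did not enter the 10% rule for Ig-high cells, but as members they were chosen by their levels across these same cells. Their levels in Ig-high cells are therefore a description and no independent support for a cell type. Mzb1 held 40, 14, 6, 17, 47 and 88 UMIs in DMSO cells 1 to 6 and 64, 42, 30 and 50 UMIs in MVC cells 1 to 4. Xbp1 held 21, 44, 21, 6, 14 and 39 UMIs in DMSO and 10, 11, 2 and 11 UMIs in MVC. As counts per 1000000 UMIs (CPM), here of the UMIs outside the immunoglobulin genes, the 6 DMSO cells together stood at 3685 CPM for Mzb1 against 163 CPM in the 198 DMSO B cell-like cells described below, a ratio of 22.6 (18.4 to 27.8). For Xbp1 the same comparison gave 2520 against 37.0 CPM, a ratio of 68.2 (47.6 to 99.8). Over the 6554 genes with at least 20 UMIs in this comparison, 13.5% were at least 2-fold higher in the Ig-high cells and the median log2 ratio was -0.56. Among the 10 cells, Xbp1 ranged from 136 CPM of all UMIs in MVC cell 3 to 2926 CPM in DMSO cell 2, and Mzb1 from 345 CPM in DMSO cell 3 to 5350 CPM in MVC cell 2. The Xbp1 level of MVC cell 3 lay below, and that of MVC cell 1 (223 CPM) above, the 142 CPM of all MVC cells outside the B cell-like class, and both lay below the 253 CPM of MVC perineurial cells.

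The gene lists around the members followed the same division in the DMSO library. Of 10 plasma cell genes, 7 had at least 20 UMIs over Ig-high and B cell-like cells together. Of these, 3 reached that limit only with the UMIs of the Ig-high cells, so the number is no support for a direction. These were Prdm1, the transcriptional repressor that drives plasma cell formation (63 against 5 UMIs), Tent5c, a poly(A) polymerase (96 against 3 UMIs), and Derl3, an ER degradation factor (31 against 0 UMIs). Tnfrsf17, which encodes the plasma cell survival receptor BCMA, was at 0 in all 6 cells and Sdc1, the surface marker CD138, held 0 to 3 UMIs. Of 19 genes of the IRE1-XBP1 and ER folding list, 18 were at least 2-fold higher, among them Sdf2l1 and Creld2, which reached 20 UMIs only with those of the Ig-high cells. These included the ER chaperone Hspa5 (3146 against 348 CPM), Hsp90b1 (3963 against 297 CPM) and Creld2 (939 against 10.4 CPM). Of 15 genes for translocation into the ER, 13 were at least 2-fold higher (median 2.42), led by Ssr4 at 2329 against 73.0 CPM. Among the 13, Ssr2 (4 against 19 UMIs) reached 20 UMIs only with those of the Ig-high cells. Over all genes tested in this comparison, 13.5% were at least 2-fold higher and the median log2 ratio was -0.56. In the other direction, 9 of 12 B cell receptor signalling genes and all 5 follicular B cell genes were at least 2-fold lower, against 43% of all genes tested, and Cd22, Cr2 and Bank1 were among those with no UMI in the 6 cells. Each of these lower genes reached 20 UMIs only with those of the B cell-like cells, so their number is no support for a direction. The lists were chosen with these data known, and with 6 cells of 1 library they describe those cells.

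The 3 MVC Ig-high cells numbered 1, 3 and 4 did not cluster with B cells. Clustering left out all immunoglobulin genes and the 7 members, and it placed these 3 cells in a FAP cluster, whereas the 6 DMSO cells and MVC cell 2 fell in the B cell-like cluster. The 3 cells held 269, 320 and 482 UMIs over 8 FAP markers, of which 218, 278 and 430 were Dcn, a matrix proteoglycan gene. The other 7 Ig-high cells held 0 or 1 UMI over the same markers. MVC cells 3 and 4 were called doublets (droplets with more than 1 cell) with scores of 0.88 and 0.90, and MVC cell 1, with 44806 UMIs, was not called at a score of 0.54. The FAP class itself held 0 Mzb1 UMIs in DMSO and 2 in MVC, and its Xbp1 level was 125 and 134 CPM. The part of FAP RNA in the Xbp1 values of these 3 cells was not tested.

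B cell-like cells formed 1 cluster, in which all 9 B cell markers were raised, with Bank1, Cd79a and Pax5 among its leading genes. Without Ig-high cells it held 198 DMSO cells (3.64% of kept cells, 3.16 to 4.17%) and 102 MVC cells (1.87%, 1.53 to 2.27%), a difference of -1.77 percentage points (-2.40 to -1.16). The immunoglobulin share of UMIs in these cells had a median of 0.457% in DMSO and 0.342% in MVC, with highest values of 1.73% and 2.11%. All following levels in B cell-like cells leave out the Ig-high cells. The members were left out of the clustering, but they were chosen because their levels set B cells apart. High member levels in this class are therefore a description.

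**Figure D2:**
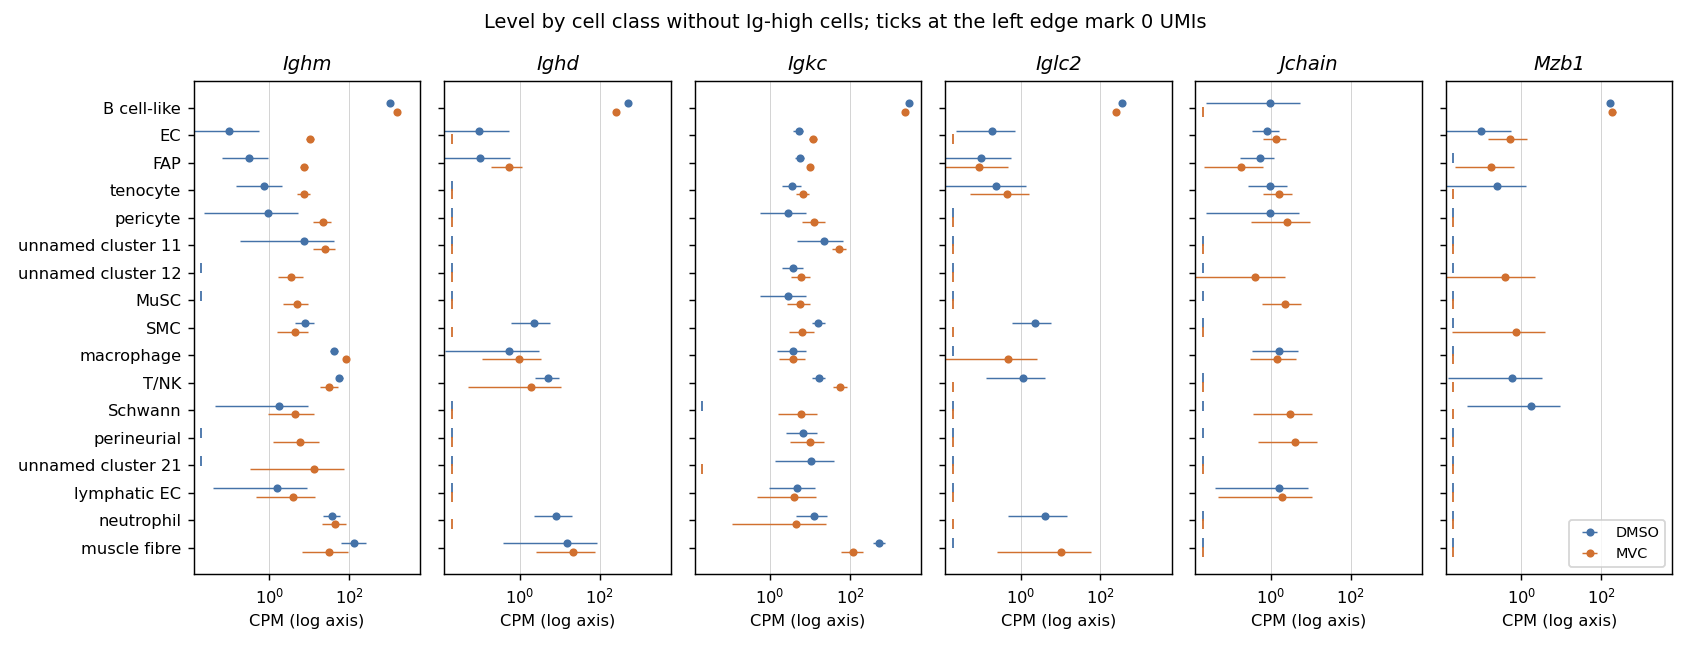
Points show the summed level of 6 members in each cell class and library as CPM on log axes, with 95% Poisson intervals, and small ticks at the left edge mark classes with 0 UMIs. Ighd, Iglc2 and Mzb1 stand above 150 CPM in B cell-like cells of both libraries and far below that elsewhere, whereas Ighm and Igkc have a low level in most classes and Jchain is below 4 CPM in all.

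Ighm and Ighd, the heavy chains of resting B cells, differed between libraries in opposite directions. Ighm summed to 1079 UMIs in DMSO and 956 in MVC, or 1017 CPM (957 to 1079) and 1574 CPM (1476 to 1677), a ratio of MVC over DMSO of 1.55 (1.42 to 1.69). The median was 4 Ighm UMIs per cell in both libraries, and the upper values separated them, since the highest cells held 63 and 29 UMIs in DMSO and 160 and 79 in MVC. Without the highest cell of each library the log2 ratio went from 0.63 to 0.47, and without cells called doublets to 0.32. Ighd summed to 535 UMIs in DMSO and 152 in MVC, or 504 CPM (462 to 549) and 250.3 CPM (212 to 293), a ratio of 0.496 (0.412 to 0.596). This lay close to the 2-fold limit, and the log2 ratio of -1.01 went to -0.91 without cells called doublets, -0.96 as the mean of per-cell CPM, -0.98 with the marker gate and -0.90 with Ig-high cells kept. The Ighd median was 2 UMIs per cell in DMSO and 1 in MVC, no single cell held more than 5.26% of the UMIs, and the share of cells with a UMI was 81.3% against 55.9%. After drawing 2000 UMIs from each cell, Ighd was seen in 60.8% of 194 DMSO cells (53.6 to 67.7%) and 42.5% of 87 MVC cells (32.0 to 53.6%), while the Ighm shares were 76.3% and 75.9%.

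The light chain Igkc summed to 3164 UMIs in DMSO and 1405 in MVC, or 2982 CPM (2879 to 3088) and 2314 CPM (2194 to 2438), a ratio of 0.776 (0.728 to 0.827). Its median per cell was 13 UMIs in DMSO and 7 in MVC, although the MVC cell with the most Igkc held 188 UMIs against 57 in DMSO. Iglc2 summed to 370 and 148 UMIs, or 349 and 244 CPM, a ratio of 0.699 (0.574 to 0.848), and Iglc3, which is nearly the same sequence in the stretch shown above, gave a like ratio of 0.668 (0.497 to 0.887). Iglc1 gave 1.05 (0.798 to 1.37), but 62.0% of its DMSO UMIs came from 1 cell.

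Of the secretory members, Jchain was nearly absent from B cell-like cells, with 1 UMI in DMSO and none in MVC, where the Poisson interval reaches 6.07 CPM. Mzb1 summed to 172 and 115 UMIs, or 162 and 189 CPM, a ratio of 1.17 (0.914 to 1.49) that does not separate the libraries beyond counting error. It was seen in 47.5% of DMSO and 45.1% of MVC cells. Xbp1 summed to only 39 and 40 UMIs, or 36.8 and 65.9 CPM, a ratio of 1.79 (1.12 to 2.86), with 7 of the 40 MVC UMIs in 1 cell and thinned shares of 8.76% and 8.05%. The interval of its log2 ratio, 0.84, included 0 without cells called doublets (0.60, -0.17 to 1.35), with the marker gate (0.67, -0.00996 to 1.35) and without the highest cell of each library (0.69, -0.0322 to 1.41).

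Of the 6 members with at least 20 UMIs, Ighd was at least 2-fold lower in MVC and none was at least 2-fold higher. Over all 7831 genes with at least 20 UMIs in these cells, 4.71% were at least 2-fold lower, 7.39% at least 2-fold higher and 12.1% either way, with a median log2 ratio of 0.02. The members' count is thus a description of Ighd and not of the set.

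**Figure D3:**
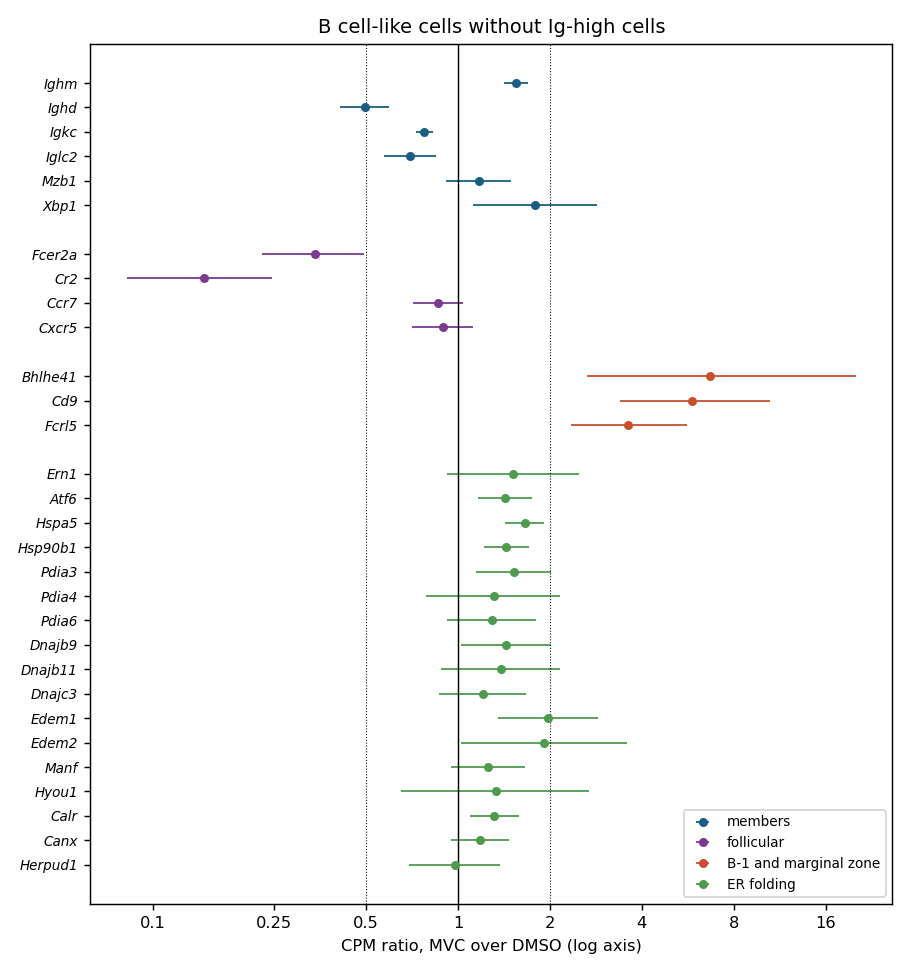
Points show the CPM ratio of MVC over DMSO (log axis) in B cell-like cells for the members and 3 gene lists, with 95% exact intervals for counting error; dotted lines mark ratios of 0.5 and 2. Among the members Ighd is lowest at 0.496 and Xbp1 highest at 1.79, the 4 follicular genes plotted lie below 1, the B-1 and marginal zone genes above 2, and 16 of 17 ER folding genes above 1.

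Genes that mark B cell subsets also differed between the libraries. Of the B cell-like cells, 5 of 198 in DMSO and 8 of 102 in MVC were called doublets. The subset genes were not recomputed without them. Of 5 follicular B cell genes, 3 were at least 2-fold lower in MVC, against 4.71% of all genes tested. Ccr7 (ratio 0.861, 0.714 to 1.04) and Cxcr5 (0.893, 0.708 to 1.12) had intervals that included 1. The lower genes included Cr2 (complement receptor CD21, 190 against 16 UMIs, ratio 0.147) and Fcer2a (CD23, 175 against 34 UMIs, ratio 0.339). Of these, Cr2 reached 20 UMIs only with its DMSO UMIs, so the number of lower genes is no support for a direction. Cr2 was counted in the follicular and the B cell receptor signalling lists and not in the B-1 and marginal zone list. A contrast between these lists depends in part on that placing. Of 6 B-1 and marginal zone genes, 3 had at least 20 UMIs over both libraries, and Bhlhe41 and Cd9 reached that limit only with their MVC UMIs, so their number is no support for a direction. The transcription factor gene Bhlhe41 stood at 6 against 23 UMIs (ratio 6.70, 2.65 to 20.1), the tetraspanin gene Cd9 at 18 against 60 (ratio 5.82, 3.39 to 10.5) and Fcrl5 at 33 against 68 (ratio 3.60, 2.34 to 5.64). One DMSO cell held 66.7% of the DMSO Fcrl5 UMIs, and without the highest cell of each library the Fcrl5 ratio was 7.81 (4.02 to 16.6). Bcl6, the germinal centre repressor, was lower at 123 against 56.0 CPM. The cycling genes Mki67 and Top2a held 27 against 4 and 66 against 14 UMIs, but 1 DMSO cell held 66.7% and 60.6% of the DMSO UMIs. Without the highest cell of each library the intervals of both ratios included 1, at 0.382 (0.0401 to 1.84) for Mki67 and 0.529 (0.207 to 1.20) for Top2a. Of the age-associated B cell genes, Cd80 stood at 5 against 77 UMIs, 28.6% of the MVC UMIs in 1 cell, and Zbtb20 at 712 against 1059 CPM.

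The secretory lists differed less. Of 19 ER folding genes, 17 had enough UMIs, 16 of these were above a ratio of 1 and none was past 2-fold, at a median log2 ratio of 0.39 beside 0.02 over all genes. Hspa5 stood at 346 against 571 CPM (ratio 1.65, 1.42 to 1.92) and Edem1, which acts in ER degradation, at 52.8 against 104 CPM (ratio 1.97, 1.35 to 2.87). The 15 ER translocation genes had a median of -0.03 and none passed 2-fold. Of 5 plasma cell genes with enough UMIs, Tent5c, which reached the limit only with its MVC UMIs, was higher (3 against 44 UMIs, ratio 25.6, 8.22 to 129) and Pou2af1, a B cell coactivator gene, lower (536 against 245 CPM, ratio 0.458, 0.379 to 0.549). Of 12 B cell receptor signalling genes, only Cr2 passed 2-fold and the median was -0.03. Of 6 surrogate light chain and early B genes, Vpreb3 had enough UMIs and stood at 73.5 against 64.2 CPM.

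The Ighd difference could also be seen from cell to cell. Among B cell-like cells with at least 5 Ighm UMIs, 11 of 90 DMSO cells (12.2%, 6.26 to 20.8%) and 21 of 48 MVC cells (43.8%, 29.5 to 58.8%) had no Ighd UMI. The median depth of the cells without Ighd was 7012 UMIs in MVC and 5373 in DMSO. Whether depth bears on the missing Ighd UMIs was not tested. The B-1 and marginal zone list summed to 422 CPM (327 to 535) in the 21 MVC cells without Ighd and to 284 CPM (217 to 366) in the 27 MVC cells with Ighd. In DMSO it stood at 89.8 CPM (29.2 to 210) and 94.5 CPM (69.5 to 126) in the same classes, so the list was higher in MVC in cells with and without Ighd. The follicular list summed to 1904 CPM (1559 to 2303) in the 11 DMSO cells without Ighd and to 911 CPM (829 to 999) in DMSO cells with Ighd. In MVC the follicular list stood at 540 CPM (432 to 666) without and 626 CPM (524 to 742) with Ighd. Cells with fewer than 5 Ighm UMIs made up 54.5% of DMSO and 52.9% of MVC B cell-like cells.

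Light chain use was read from B cell-like cells with at least 5 light chain UMIs, 177 in DMSO and 70 in MVC. A cell counted as kappa when at least 90% of these UMIs were Igkc, lambda when at most 10% were, and mixed otherwise. Kappa cells made up 50.8% (43.2 to 58.4%) in DMSO and 48.6% (36.4 to 60.8%) in MVC, lambda cells 2.82% (0.923 to 6.47%) and 4.29% (0.893 to 12%), and mixed cells 46.3% and 47.1%. The kappa share depended on the limit, since at 80% it was 70.6% in DMSO and 74.3% in MVC. The lambda UMIs of cells with mostly Igkc were not spread over the lambda genes evenly. In the 163 DMSO cells with more Igkc than lambda UMIs, Iglc2 and Iglc3 held 264 and 139 UMIs and Iglc1 only 21, or 4.95% of the lambda UMIs. In the 14 DMSO cells with mostly lambda UMIs, Iglc1 held 128 of them, or 48.7%, but 93 of the 128 lay in 1 cell and the other 13 cells stood at 20.7%. The MVC values were 12.4% in 63 cells and 57.1% in 7 cells, and 44.4% in the 6 cells left without the one with most Iglc1 UMIs. Of all Iglc2 UMIs in B cell-like cells, 71.4% in DMSO and 75% in MVC thus lay in cells that carried mostly Igkc, where the Ig-high kappa cells also had 1 to 35 Iglc2 UMIs. The source of these lambda UMIs was not tested.

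Outside B cell-like and Ig-high cells, 5233 DMSO and 5348 MVC cells showed how far immunoglobulin RNA reached other classes. Ighm was at 5.99 CPM (5.23 to 6.82) in DMSO and 13.2 CPM (12 to 14.4) in MVC, and Igkc at 6.86 (6.05 to 7.76) and 10.3 CPM (9.30 to 11.5). A UMI of Ighm was seen in 2.54% of DMSO and 6.10% of MVC cells, at median depths of 5877 and 5194 UMIs, and in 0.856% and 2.10% after drawing 2000 UMIs per cell, which left out 443 and 966 shallower cells. Ighd (21 and 11 UMIs), Iglc2 (12 and 5), Jchain (22 and 34) and Mzb1 (4 and 8) were each below 1 CPM. These levels set the background against which the B cell-like shares above are to be read. Of the 5 members with at least 20 UMIs in these cells (Ighm, Ighd, Igkc, Jchain and Xbp1), Ighm was at least 2-fold higher in MVC (ratio 2.20, 1.87 to 2.59) and none was at least 2-fold lower, beside 3.21% of 19039 genes higher, 3.39% lower and 6.6% either way.

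The heavy chain counts of other classes differed between libraries and classes. Over all cells outside the B cell-like class, DMSO held 225 UMIs of Ighm and 77 of Ighg2b and Ighg2c, and MVC held 458 of Ighm and none of Ighg2b or Ighg2c. In the immune classes among them DMSO held 191 UMIs of Ighm and 8 of Ighg2b and Ighg2c. In stromal and vascular cells (all classes other than B cell-like, macrophage, T/NK and neutrophil), DMSO held 69 UMIs of Ighg2b and Ighg2c and 34 of Ighm, while MVC held 259 of Ighm and none of Ighg2b or Ighg2c. In endothelial cells (EC), 1 Ighm UMI was counted in 2093 DMSO cells and 78 in 1683 MVC cells, a ratio of 104 (18.1 to 4155), against 52 and 90 UMIs of Igkc, a ratio of 2.31 (1.62 to 3.31). In FAP the Ighm UMIs were 3 and 84 and those of Igkc 53 and 111, with 20 of the 84 in 1 cell. Among stromal and vascular cells with no UMI of any of the 9 B cell markers, Ighm and Igkc held 16 and 137 UMIs in DMSO and 213 and 250 in MVC, so the difference was also present in them. V gene UMIs in the non-B classes were few, 20 in DMSO and 7 in MVC, of which 6 (30%, 11.9 to 54.3%) and 2 (28.6%, 3.67 to 71.0%) belonged to Ighv or Igkv genes leading in that library's Ig-high cells, against 5.65% and 5.08% of the V gene UMIs in B cell-like cells. The source of the immunoglobulin UMIs in stromal cells was not tested.

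**Figure D4:**
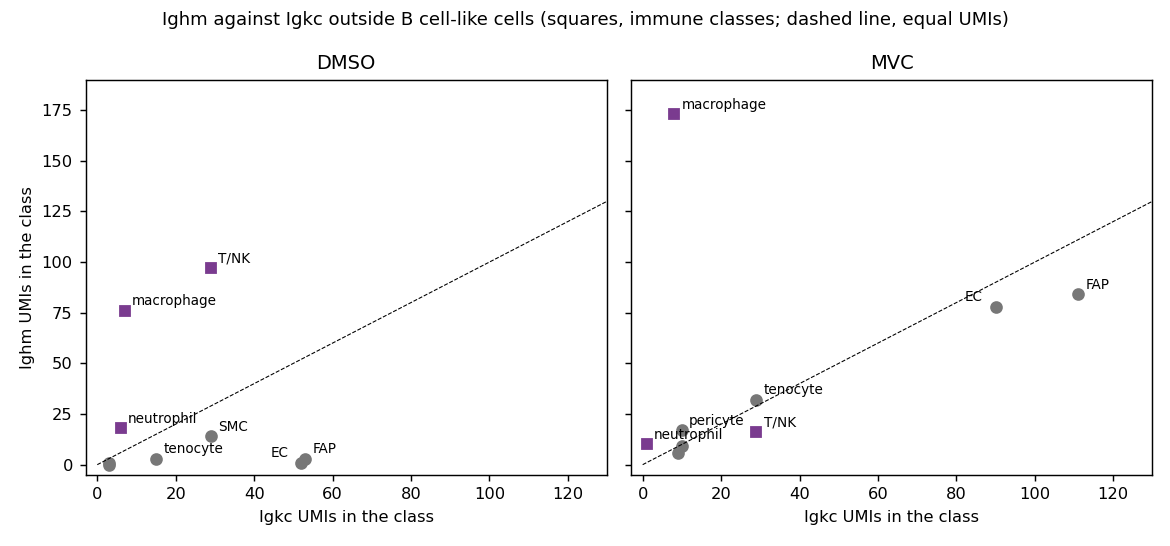
Each point is 1 of 9 cell classes (those with few UMIs have no label), with its summed Igkc UMIs on the x axis and Ighm UMIs on the y axis, in DMSO (left) and MVC (right); squares are immune classes and the dashed line marks equal UMIs. Macrophages lie far above the line in both libraries (76 against 7 and 173 against 8 UMIs), whereas EC and FAP lie at the bottom in DMSO and near the line in MVC.

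Macrophages carried Ighm with little Igkc in both libraries. Ighm held 76 UMIs in 150 DMSO macrophages and 173 in 211 MVC macrophages, or 41.2 CPM (32.5 to 51.6) and 82.2 CPM (70.4 to 95.5), a ratio of 1.99 (1.51 to 2.65). Igkc held 7 and 8 UMIs, which gave 10.9 Ighm UMIs per Igkc UMI (5.02 to 27.9) in DMSO and 21.6 (10.7 to 50.9) in MVC, against 0.341 and 0.680 in B cell-like cells and 0.157 and 0.804 in stromal and vascular cells. Ighm was spread over cells, with a UMI in 32.0% of DMSO and 39.8% of MVC macrophages and at most 5 and 9 UMIs per cell. The 102 DMSO and 123 MVC macrophages without any B cell marker UMI held 33 of the 76 and 69 of the 173 Ighm UMIs. The smaller group of macrophages with a marker UMI thus held the larger part of the Ighm UMIs. Depth was not compared between the groups with and without a marker UMI. Without cells called doublets, macrophages kept 73 of the 76 and 166 of the 173 Ighm UMIs. The source of the Ighm UMIs in macrophages was not tested. Neutrophils also had more Ighm than Igkc, with 18 against 6 UMIs in 65 DMSO cells and 10 against 1 in 34 MVC cells. T/NK cells had 97 against 29 UMIs in 195 DMSO cells and 16 against 29 in 59 MVC cells, so their Ighm ratio of MVC over DMSO was 0.564 (0.310 to 0.963) and their Igkc ratio 3.42 (1.97 to 5.93). The T/NK cluster also had the mast cell protease gene Mcpt4 among its leading genes. In the small muscle fibre class, the 35 Igkc UMIs of DMSO all lay in 1 of 14 cells.

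Xbp1 was the member used outside the B lineage, and 96.5% of its DMSO and 98.5% of its MVC UMIs lay in other classes. Perineurial cells, which sheathe nerve bundles, had the highest level at 271 CPM (238 to 307) in DMSO and 253 CPM (212 to 301) in MVC. Muscle stem cells (MuSC) followed at 225 (197 to 255) and 204 CPM (184 to 226), then EC at 176 (168 to 184) and 175 CPM (165 to 184) and Schwann cells at 169 (137 to 205) and 137 CPM (111 to 168). The order is by the level over both libraries, and in MVC tenocytes (147 CPM) stood above Schwann cells. The intervals of neighbours in this order overlapped in MVC, and in DMSO the interval of MuSC lay above that of EC. Tenocytes, FAP, macrophages, smooth muscle cells (SMC) and lymphatic EC lay between 92.5 and 147 CPM, and T/NK cells at 67.5 and 82.8 CPM. Unnamed cluster 21, on 27 and 8 UMIs, stood at 146 and 106 CPM, and unnamed cluster 11, on 11 and 28 UMIs, at 82.5 and 57.1 CPM. The muscle fibre class had 2 and 1 Xbp1 UMIs. Pericytes, B cell-like cells and neutrophils were low, at 51.6 and 48.9, 36.8 and 65.9, and 32.7 and 70.2 CPM, so B cell-like cells had less Xbp1 than EC or FAP in both libraries.

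**Figure D5:**
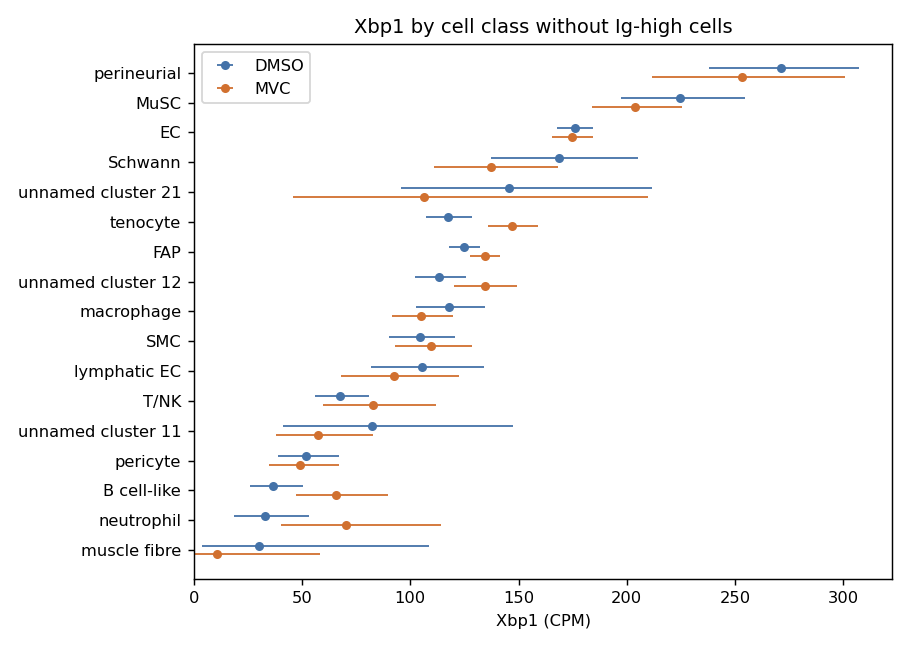
Points show Xbp1 in CPM (linear axis from 0) for each cell class in DMSO and MVC with 95% Poisson intervals, ordered by the level over both libraries. Perineurial cells lead at 271 and 253 CPM, B cell-like cells lie near the bottom at 36.8 and 65.9 CPM, and the libraries overlap in most classes but not in tenocytes.

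Between MVC and DMSO, Xbp1 was close to equal in EC (ratio 0.993, 0.924 to 1.07), FAP (1.07, 0.995 to 1.16), MuSC (0.908, 0.770 to 1.07), macrophages (0.892, 0.736 to 1.08) and perineurial cells (0.934, 0.749 to 1.16). Tenocytes were higher in MVC on 490 against 638 UMIs, with a ratio of 1.25 (1.11 to 1.41). The intervals of unnamed cluster 12 (1.18, 1.02 to 1.38) and of neutrophils (2.15, 1.01 to 4.59, on 16 UMIs in each library) also lay above 1. No class with at least 50 Xbp1 UMIs in both libraries reached 2-fold.

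Summed over all kept cells, the Ighm and Jchain ratios depended on the Ig-high cells. With these cells, Ighm stood at 46.1 CPM in DMSO and 226 CPM in MVC, a ratio of 4.90 (4.66 to 5.16), and without them at 33.7 and 39.9 CPM, a ratio of 1.18 (1.10 to 1.28). The direction of that last Ighm ratio turned to a log2 ratio of -0.0805 without cells called doublets and to -0.0490 as the mean of per-cell CPM. MVC cell 1 by itself held 49.5% of the MVC Ighm UMIs. Jchain went from 64.5 and 10.0 CPM with Ig-high cells, a ratio of 0.155 (0.139 to 0.174), to 23 and 34 UMIs without them, a ratio of 1.61 (0.923 to 2.87). Igkc had a ratio of 0.679 (0.667 to 0.691) with and 0.563 (0.531 to 0.596) without these cells. Ighd, absent from Ig-high cells, had a ratio of 0.320 (0.267 to 0.381) either way, and Iglc2 had 0.479 and 0.437. Mzb1 gave 0.869 (0.746 to 1.01) with and 0.762 (0.601 to 0.965) without them, and Xbp1 1.03 and 1.06. Without Ig-high cells, Ighd and Iglc2 were at least 2-fold lower in MVC and no member at least 2-fold higher, beside 3.47% and 3.24% of 19123 genes and 6.7% either way. These sums also include the B cell-like share of cells, 3.64% in DMSO and 1.87% in MVC. Within B cell-like cells the ratio was 0.496 for Ighd and 0.699 for Iglc2. How far that share enters the sums was not tested. With Ig-high cells, Ighm was at least 2-fold higher and Ighd, Iglc2 and Jchain at least 2-fold lower, beside 3.3% and 3.47% of 19140 genes and 6.77% either way.

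Over the 34 sums of 17 classes in 2 libraries, without Ig-high cells, the genes whose log2(CPM + 10) was most like each member were mostly B cell genes. These correlations are a description over points that share 2 libraries and differ in depth. Ighd was closest to Ms4a1 (CD20, r = 0.989), Pax5 (0.981) and Cd79a (0.979), and Mzb1 to Cd79b (0.986), Gm30211 (0.977) and Pou2af1 (0.965). Iglc2 was closest to Cd79b (0.984), Mzb1 (0.981) and Ms4a1 (0.976), and Igkc to Pax5 (0.942), Cd79a (0.936) and Fcmr, an IgM receptor gene (0.922). Ighm was closest to H2-DMb2 (0.921), a gene of antigen loading on class II molecules, Cd72 (0.919) and B3gnt5 (0.919). Xbp1 was closest to Csrnp1 (0.873) and to the ER stress genes Hspa5 (0.867) and Dnajb9 (0.826). Jchain, with 57 UMIs in all of these sums, gave 0.720 at most.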

How the data were processed

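The deposited matrices hold raw UMI counts per gene and barcode, which the authors made from 10x reads; the submitters' processing notes name Cell Ranger 7.0.0, Seurat 5.0.1 and the mm10 build. Whether intronic reads were counted is not given in the sources used here. From these counts, barcodes under 500 genes or above 10% mitochondrial UMIs were removed and the rest clustered (2000 variable genes, 30 principal components, 20 neighbours, leidenalg 0.10.2 at resolution 1) without immunoglobulin genes, the 7 members, mitochondrial genes and sex-linked genes. Clusters were named from fixed markers, and 3 of 27 clusters stayed unnamed. Doublets were called by simulation and kept (236 DMSO and 238 MVC cells).

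UMIs were summed per class and library and divided by the class total (CPM). Poisson, binomial (Clopper-Pearson), Newcombe and conditional ratio intervals (scipy 1.17.1) cover counting error only, since UMIs of 1 library are not replicates. A gene was called at a 2-fold ratio with at least 20 UMIs in both groups together. List medians are of log2(CPM + 10) differences. For a count of 0 the upper end of the Poisson interval was given. The ratio code was tested on simulated counts. No test between groups was possible with 1 library each. The members, lists and rules were chosen with earlier results of these data known. The genes named are the members, the constant genes, the leading V genes of each Ig-high cell, list genes with at least 20 UMIs (up to 8 per list by UMIs) and the 3 genes most like each member with at least 200 UMIs. Derl3, Creld2, Ssr4, Edem1, Tnfrsf17 and Sdc1 were named after their values were seen. Of 32285 gene IDs, 32158 were found in GENCODE M21 (GRCm38), the source of positions and sequences. Alternatives covered doublets, cell filters, totals and scaling, cell definitions and Ig-high limits. Some list genes are counted but not reported here by name.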

Additional observations from a re-analysis of the deposited data

Results flagged for a closer look

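Ighm and Igkc had ratios of MVC over DMSO whose counting intervals lay on opposite sides of 1 in different classes, and with 1 library per group the difference between classes was not tested. Ighm stood at a ratio of 1.55 in B cell-like cells, 104 in EC, 24.1 in FAP and 1.99 in macrophages, but 0.564 in T/NK cells. Igkc stood at 2.31 in EC, 1.80 in FAP and 3.42 in T/NK cells, but 0.776 in B cell-like cells.

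The barcodes removed by the cell filter, which no comparison above used, also held immunoglobulin RNA above its level in DMSO. Ighm had 2 UMIs in DMSO and 338 in MVC, a ratio of 125 (34.2 to 1033), and Igkc 6 and 211 UMIs, a ratio of 25.9 (11.7 to 71.5). Jchain had 0 UMIs in DMSO and 15 in MVC. One removed MVC barcode, with 14.8% mitochondrial UMIs and 15% immunoglobulin UMIs, held 304 of the Ighm, 176 of the Igkc and 13 of the Jchain UMIs, with Ighv3-6 and Igkv5-39 as its leading V genes. Without it the ratios were 12.6 (3.23 to 108) for Ighm and 4.33 (1.80 to 12.6) for Igkc.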

How the results depend on the processing

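Values here are log2 ratios of MVC over DMSO unless stated. At the 20% limit, MVC cells 3 and 4 (18.5 and 16.9% immunoglobulin UMIs) were no longer Ig-high and entered the sums as FAP, among the other classes. With Ig-high cells kept, MVC cells 1, 3 and 4 entered as FAP, and MVC cell 2 and the 6 DMSO cells as B cell-like. Beyond this change in the cells summed, the cause of a change was not tested. In B cell-like cells, 62 of 72 recomputed values stayed within the reported counting interval. With Ig-high cells kept, Ighm went from 0.63 to 0.97, Igkc from -0.37 to -2.55, Mzb1 from 0.22 to -0.37 and Xbp1 from 0.84 to -0.93, a reversal. Ighm was 0.32 without doublets, 0.42 as the mean of per-cell CPM and 0.47 without the cell with most UMIs in each library, an alternative added after seeing the data, as was the same step for Mki67, Top2a, Fcrl5 and Iglc1. Igkc was -0.48, -0.50 and -0.50 as the mean of per-cell CPM, by the marker gate and without that top cell.

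Over all cells without Ig-high, 64 of 77 values stayed. Ighm, at 0.24, reversed to -0.0805 without doublets and -0.0490 as the mean of per-cell CPM, and was 1.5 with the Ig-high limit at 20% and 2.29 with Ig-high cells kept. Igkc, at -0.83, was -1.04 without doublets, -1.04 as the mean of per-cell CPM, -0.56 with Ig-high cells and reversed to 0.98 at 20%. Iglc2 was -1.50 as the mean of per-cell CPM. Jchain was 3.02 at 20% and -2.69 with Ig-high cells. Mzb1 reversed from -0.39 to 0.33 at 20%, and Xbp1 was 0.0205 with median-ratio scaling.

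In other classes, 35 of 44 values stayed. As the mean of per-cell CPM, Ighm was 1.51 and Igkc 1.12. At 20%, Ighm, Igkc and Jchain were 3.54, 4.32 and 3.07, and with Ig-high cells kept 4.94, 6.08 and 3.94. Xbp1 reversed from 0.06 to -0.00299 with median-ratio scaling. Xbp1 by class stayed in 28 of 30 values, with FAP at -0.0468 under that scaling and perineurial cells at 0.37 at resolution 2. MVC Ig-high cells numbered 2 without doublets and 2 at 20%. Kappa cells were 70.6% in DMSO and 74.3% in MVC at the 80% limit.

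No paired analysis was possible because each group is 1 library without a replicate number. Differences between MVC and DMSO rest on 1 library each, and 4 MVC Ig-high cells, 3 of them with UMIs of FAP markers, carry most MVC immunoglobulin UMIs.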
